A study of Mus musculus with 101 samples.

Results

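Esr1 encodes estrogen receptor alpha, and a single captured region of the panel lay in this gene. It is a target region of 500 bp on chromosome 10, from 4620965 to 4621465 in mm10 (chr10:4620965-4621465), which the authors placed in a category they named aging_Meer. It is 1 of the 868 target regions and 1 of the 224 of that category, and 8 of the 7917 CpGs in the deposited CpG table lie in it. The region was chosen by its measured values, because its methylation followed the mean methylation of each line very closely in these data. Its relation to that mean, its spread between lines and its resemblance to other regions are therefore given as descriptions, without tests.

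The study measured DNA methylation by enzymatic methyl sequencing (EM-seq), in which enzymes convert unmethylated cytosines, after capture with a Twist targeted panel. All samples were embryonic stem cells of mice of the Diversity Outbred stock, a population bred from several inbred founder strains. The culture medium held serum, the cytokine LIF and 2i, inhibitors of the kinases MEK and GSK3 under which the cells stay naive. No differentiated or untreated cells are among the samples, so the lines are compared only with each other. The stated purpose was to see how variable methylation is among such lines. The tables have 85 columns, each treated here as a line, and the line names carry the prefixes B1 (28 lines), B2 (18), B3A (20) and B3B (19). The labels do not say what the prefix stands for. Of the columns, 31 have names that end in N, whose meaning is not stated either: 6 of them are B1 columns, 16 are B3A and 9 are B3B, and B2 has 0. The values are methylation fractions without read counts, given here as percent, so the depth behind a value is unknown and no counting interval can be stated. Nothing says that the columns came from separate cultures, so p-values measure the spread between columns.

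Estrogen receptor alpha is a transcription factor of the nuclear receptor family. It binds estradiol, pairs with a second receptor molecule and occupies estrogen response elements in DNA to raise or lower the transcription of nearby genes. The human gene ESR1 is a long-known example of a gene whose CpG island gains methylation with age in colon and in many tumours. Embryonic stem cells held in 2i lose much of their genome-wide methylation, and the loss is usually described as global rather than confined to single genes.

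The captured region lies inside the annotated gene, not at an annotated start. Esr1 (gene 13982) spans 4611989 to 5005633 on chromosome 10 in the RefSeq table of GRCm38.p6, the assembly with the coordinates of mm10, and runs on the plus strand. RefSeq lists 2 start windows for the gene, each of 250 bases before to 50 bases after a start. The region begins 8976 bp after the first start, at 4611989, and ends 88693 bp before the second, at 4710158. The table holds no exons, so whether the region is exonic or intronic is not stated here. The start windows are shown because they hold the annotated starts on either side of the measured region. Whether they or the region regulate the gene was not tested. Capitals mark each CG, searched as the letters CG, which reads the same on both strands.
Esr1 start window chr10:4611739-4612038, plus strand: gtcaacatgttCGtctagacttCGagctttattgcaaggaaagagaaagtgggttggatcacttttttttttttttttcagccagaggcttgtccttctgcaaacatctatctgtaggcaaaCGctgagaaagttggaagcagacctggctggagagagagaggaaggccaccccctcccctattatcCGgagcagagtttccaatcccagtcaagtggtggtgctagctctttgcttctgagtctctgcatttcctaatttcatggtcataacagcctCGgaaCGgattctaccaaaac
Esr1 start window chr10:4709908-4710207, plus strand: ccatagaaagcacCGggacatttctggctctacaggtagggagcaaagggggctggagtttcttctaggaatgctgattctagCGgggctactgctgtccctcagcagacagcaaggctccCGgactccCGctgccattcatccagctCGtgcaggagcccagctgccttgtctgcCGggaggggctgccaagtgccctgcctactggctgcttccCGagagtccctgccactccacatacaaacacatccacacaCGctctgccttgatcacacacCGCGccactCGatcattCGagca
The first window holds 6 CG and the second 12, against a median of 7 over 32851 RefSeq start windows, of which 94.6% hold at least 1. No CpG of the deposited table falls in either window, so the values below describe the region inside the gene and say nothing of methylation at its annotated starts.

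Methylation of the Esr1 region spanned almost the whole scale from line to line. Its mean was 40.8% ± 23.8 (SD, n = 85), with 3.40% in the lowest line, a median of 38.8% and 92.8% in the highest. The region was below 10% in 10 lines, below 25% in 25 and above 75% in 8, so 52 lines lay between 25% and 75%. The highest values were 92.8% in B1_C17, 88.5% in B1_A5, 85.8% in B3B_8, 81.9% in B3B_44N and 80.8% in B2_9. The lowest were 3.40% in B3A_29N, 4.94% in B3B_20N, 5.26% in B3A_16N and 5.69% in B3B_27N. Both B1 and B3B thus had lines near the top of the scale, while 6 of the 10 lines below 10% were B3A lines. A value was present in every line.

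B1 lines had the most methylated Esr1 region and B3A lines the least, with wide overlap. In B1 the values ran from 15.95% through a median of 59.3% to 92.8%, with a mean of 55.6% ± 21.3 (SD, n = 28). In B2 they ran from 7.71% through 47.5% to 80.8%, with a mean of 44.2% ± 19.3 (SD, n = 18). In B3A they ran from 3.40% through 21.6% to 66.2%, with a mean of 26.9% ± 19.8 (SD, n = 20), and in B3B from 4.94% through 28.7% to 85.8%, with a mean of 30.3% ± 22.8 (SD, n = 19). Values above 50% were found in 16 of the 28 lines of B1 and 7 of the 18 of B2, but in 3 of the 20 of B3A and 2 of the 19 of B3B. Every prefix had lines below 25%, namely 2 of B1, 3 of B2, 11 of B3A and 9 of B3B.

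**Figure D1:**
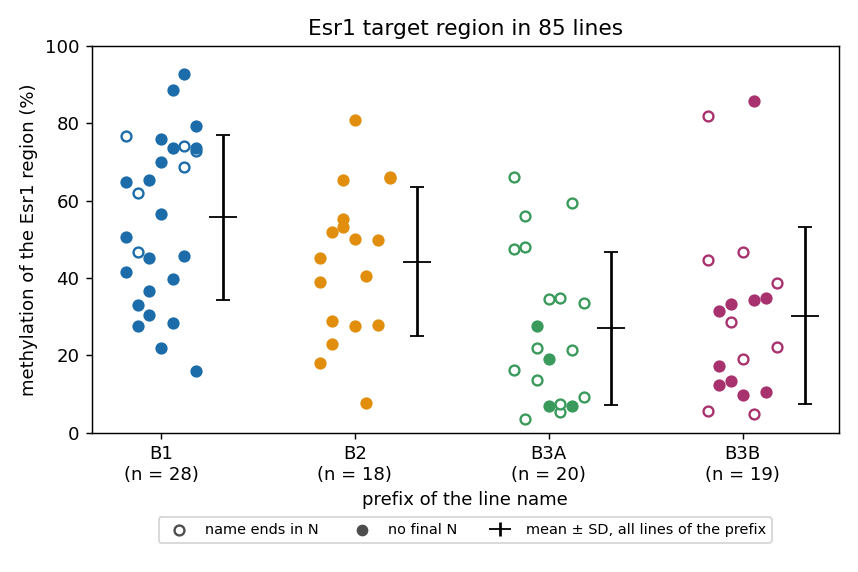
Methylation of the Esr1 target region in percent (vertical axis) in each of 85 lines, by prefix of the line name (horizontal axis); open circles are columns whose name ends in N, and bars give the mean ± SD of all lines of a prefix. B1 has the highest mean (55.6%) and B3A the lowest (26.9%), and the 4 ranges overlap.

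The prefixes differed at the Esr1 region (limma moderated F test on the log2 odds over 787 regions, Benjamini-Hochberg adjusted p = 0.000171). This set it little apart, because 81.6% of the regions tested were called in the same comparison, where Esr1 ranked 46 by p. The region was also chosen for following a line mean that itself differs between prefixes, so neither this p nor those of the pairs of prefixes below, on the same values, are independent support. Between pairs of prefixes, the 6 two-sided permutation tests of mean methylation gave 3 differences past the threshold of 0.05 after adjustment over the 6. B1 exceeded B3A by 28.7 points ± 5.98 (SE; adjusted p = 0.00012) and B3B by 25.4 points ± 6.61 (SE; adjusted p = 0.00126). B2 lay above B3A by 17.2 points ± 6.34 (SE; adjusted p = 0.0226). This last difference did not pass without the 16 lines whose name matches 2 sample titles, where it was 11.2 points (permutation test, adjusted p = 0.128). Differences of 11.5 points ± 6.08 between B1 and B2, 13.9 points ± 6.94 between B2 and B3B and -3.34 points ± 6.85 between B3A and B3B (SE) did not pass (permutation tests, adjusted p = 0.0862, 0.0826 and 0.626).

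The final N of the column names is unevenly spread over the prefixes. With a final N the Esr1 means were 66.8% ± 11.2 in B1, 29.9% ± 20.7 in B3A and 32.5% ± 24.02 in B3B (SD, n = 6, 16 and 9). Without it they were 52.6% ± 22.6 for 22 B1 columns, 44.2% ± 19.3 for 18 B2, 15.1% ± 10.2 for 4 B3A and 28.3% ± 22.8 for 10 B3B columns (SD). B1 stood above the other prefixes and B3A below them in each set. With prefix as a term, limma did not call the final N at Esr1 (difference of 0.64 ± 0.42 on the log2 odds scale, SE, n = 85; adjusted p = 0.713), nor at any of 787 regions, 13 of which had an unadjusted p under 0.05 (0% called).

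Across lines, methylation of the Esr1 region climbed with the overall methylation of the line at a steeper slope than at most regions. Each point of the mean over the other 786 kept regions, those measured in 80% or more of the lines, went with 2.32 points ± 0.0567 (SE of the slope, n = 85) at Esr1. The region was more methylated than that mean in all 85 lines, by 21.8 points ± 14.2 (SD), and this gap ran from 0.0603 points in B3A_44N to 49.1 points in B1_C17. In the least methylated lines the gap nearly closed: B3A_29N had 3.40% at Esr1 and a line mean of 3.02%, and B3B_20N had 4.94% and 4.35%. Pearson r was 0.976 and Spearman rho 0.977, and r was 0.974 without the 2 lines farthest from the median line mean. By prefix the slope was 2.20 ± 0.134 for B1, 2.24 ± 0.120 for B2, 2.53 ± 0.0787 for B3A and 2.14 ± 0.0934 for B3B (SE), with r of 0.955, 0.978, 0.991 and 0.984. It was 2.07 ± 0.114 over the 42 lines with the higher line means and 2.57 ± 0.175 over the 43 others (SE). These values chose the region and are a description.

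**Figure D2:**
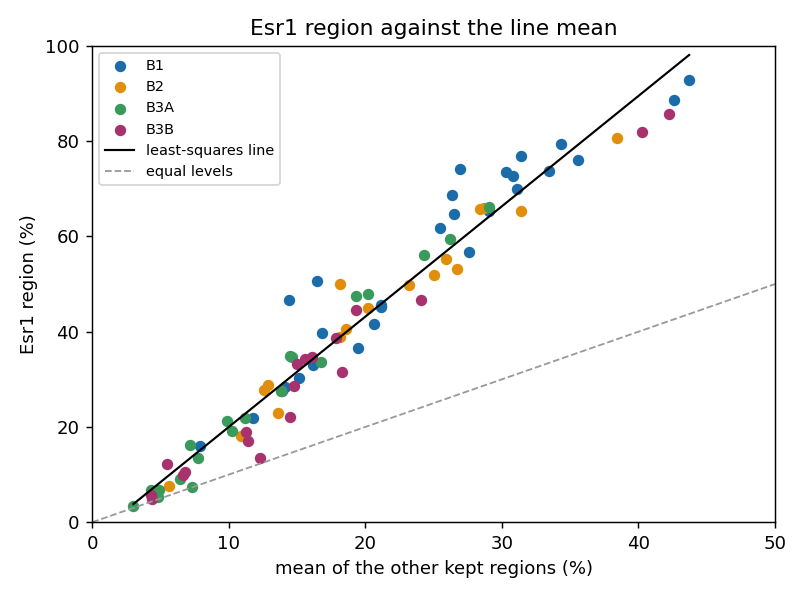
Methylation of the Esr1 region (vertical axis, percent) against the mean of the other 786 kept regions (horizontal axis, percent), 1 point per line, coloured by prefix; the solid line is the least-squares line and the dashed line marks equal levels. All 85 lines lie above the dashed line, and the slope of the solid line is 2.32.

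Among regions of like methylation, Esr1 stood at the steep and variable end. Of the 119 kept regions with a mean within 5 points of its own, itself included, it ranked 3 by slope on the line mean and 4 by SD. The median region of that set had a slope of 1.98 and an SD of 20.9 points. Within the 221 kept aging_Meer regions, Esr1 ranked 26 by mean, 2 by SD, 1 by slope and 13 by r with the line mean, where the medians were 15.2%, 10.5 points, 0.929 and 0.908. Over all 787 kept regions it ranked 21 by r. Those just above it in that order were regions in Cbx2, a Polycomb protein gene (r = 0.977), Pde11a, which encodes a cyclic nucleotide phosphodiesterase, and Camkk1, which encodes a kinase of the calcium and calmodulin cascade (both 0.976). Those just below were in Unc5a, which encodes a netrin receptor, and Noxa1, an activator of NADPH oxidase (both 0.976), and Synpo, which encodes an actin-associated protein (0.975).

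Departures from the fitted line were small beside the spread of the region itself. Their SD was 5.19 points (n = 85), against 23.8 points for the region. The departures averaged 2.21 points ± 6.39 among B1 lines, -0.574 ± 4.10 among B2, 0.462 ± 3.08 among B3A and -3.20 ± 4.44 among B3B (SD). With the line mean as a covariate on the log2 odds scale, limma did not call a difference between prefixes at Esr1 (adjusted p = 0.143, unadjusted p = 0.0184). The region was chosen for following the line mean closely, also by prefix, so a small difference after that mean is taken out was part of the choice and nothing is read from it. In that comparison 3.43% of the 787 regions were called and 23.1% had an unadjusted p under 0.05. The adjusted p ran from 0.0548 on fractions to 0.772 without columns whose name ends in N.

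By the deposited region averages, the 3 largest departures were in B1, and 2 of these in columns with the final N. All 6 B1 columns with a final N lay above the fitted line, by 10.05 points ± 4.85 (SD, range 4.64 to 16.4), while the 22 other B1 lines averaged 0.0709 points ± 4.96. B3A and B3B columns with a final N averaged 0.838 points ± 3.34 and -3.13 points ± 3.88 (SD, n = 16 and 9), so the excess was not seen in every prefix. The 2 largest departures, 16.4 and 15.7 points, were those of B1_B37N and B1_B37, columns that share a line number. B1_B37N had 46.7% at Esr1 with a line mean of 14.4%, and B1_B37 had 50.6% with 16.4%. Next was B1_A9N with 14.96 points, at 74.2% against a line mean of 26.9%. The mean of its 8 CpGs was lower, 58.4%, while B1_B37N and B1_B37 had CpG means of 48.2% and 50.6%. Over the 6 B1 columns with a final N the CpG mean was 62.1%, against 66.8% by region average. For the 22 other B1 lines these were 50.6% and 52.6%. Departures were not computed from the CpG means. At the other end, B3B_18 lay 11.9 points below the line (departure -11.9), with 13.4% at Esr1 and a line mean of 12.3%. Over 620 regions the 2 B37 columns differed by 2.54 points on average in absolute value, against a median of 9.81 points over all 3570 pairs of columns. This pair ranked 44 from the smallest difference, and the closest other pair differed by 1.40 points. By the correlation across regions of departures from the region means, centred in each column, it ranked 320 (r = 0.755). The highest other pair had r = 0.985, and the median was 0.00650 over all pairs and 0.0947 over the 378 pairs of B1 columns. The labels do not say whether the 2 B37 columns come from the same cells. Without the 6 B1 columns with a final N, the adjusted p of the comparison of prefixes with the line mean as a covariate was 0.467, and without B1_B37N alone 0.219 (limma, alternatives chosen after seeing the data).

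**Figure D3:**
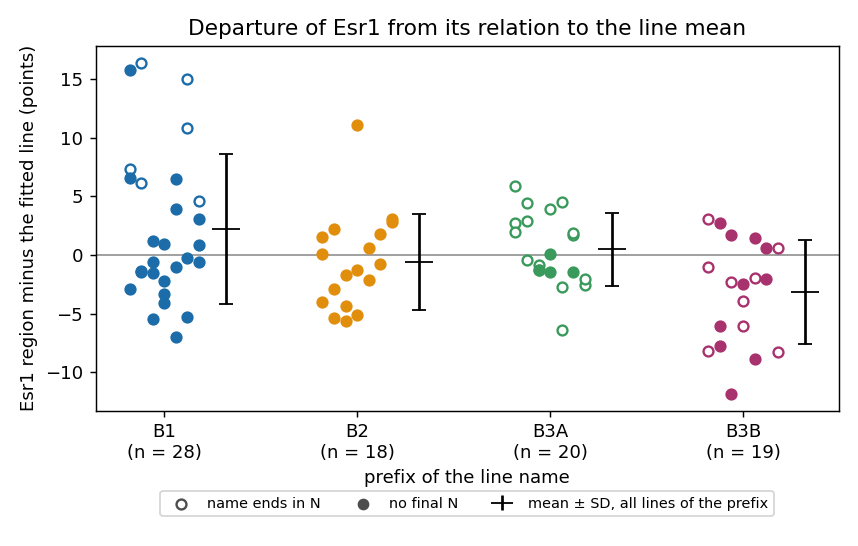
Departure of the Esr1 region from its least-squares line on the line mean, in percentage points (vertical axis), for 85 lines by prefix (horizontal axis); open circles are columns whose name ends in N, and bars give the mean ± SD. The 6 open circles of B1 lie between 4.64 and 16.4 points, and those of B3A and B3B lie on either side of 0.

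The 8 measured CpGs of the region span 162 bp, from 4621089 to 4621250, and each had a value in all 85 lines. Counted from the start of the region they lie at 124, 129, 157, 201, 208, 250, 276 and 285 bp. Their means over lines were 39.3% ± 24.2 at 124 bp, 36.8% ± 24.8 at 129 bp, 38.996% ± 23.5 at 157 bp and 30.9% ± 23.2 at 201 bp (SD, n = 85). They were 38.5% ± 23.5 at 208 bp, 43.5% ± 23.8 at 250 bp, 45.9% ± 25.99 at 276 bp and 38.8% ± 25.1 at 285 bp (SD, n = 85). Each CpG on its own ran from 0% in its lowest line to between 89.7% and 95.1% in its highest. The spread between lines therefore belonged to every CpG, while the differences between CpGs were a fraction of it.

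On average, the CpGs at or past the midpoint of the region were more methylated than those before it. The 3 CpGs at 250 bp, which is the midpoint itself, 276 bp and 285 bp averaged 42.7% ± 24.5, against 36.9% ± 23.1 over the 5 CpGs nearer the annotated first start (SD, n = 85). The difference was 5.85 points ± 6.56 (SD), and 69 of 85 lines had a positive one (sign-flip permutation over lines, two-sided, p = 2e-05, the smallest it can give). The count was 23 of 28 for B1, 14 of 18 for B2, 17 of 20 for B3A and 15 of 19 for B3B, with means of 5.002, 8.19, 5.64 and 5.11 points. These means did not differ between prefixes past the threshold (permutation test of the F statistic, p = 0.393). The split by position did not enter the choice of the region.

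Single CpGs carried this difference unevenly. The CpG at 201 bp (4621166) was below the mean of the other 7 in 81 of 85 lines, with a difference of -9.35 points ± 6.65 (SD), and it had the lowest mean of the 8 in each prefix. Only 7 bp further on, the CpG at 208 bp was higher than it by 7.58 points ± 7.22 (SD), in 73 of 85 lines. The CpGs at 276 bp and 250 bp stood above the other 7 by 7.75 points ± 8.12 in 70 lines and by 5.07 points ± 5.84 in 68 lines (SD, n = 85). The last CpG, at 285 bp, did not share this, with a difference of -0.286 points ± 7.31 (SD), and its mean of 38.8% was below those at 124 bp and 157 bp. These comparisons were added after the values were seen. By two-sided sign-flip permutation adjusted over the 8 CpGs, those at 201, 250 and 276 bp departed from the others (adjusted p = 5.33e-05 each), as did that at 129 bp, by -2.61 points ± 7.13 (adjusted p = 0.00176). The other 4 did not pass, with adjusted p between 0.627 and 0.905.

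**Figure D4:**
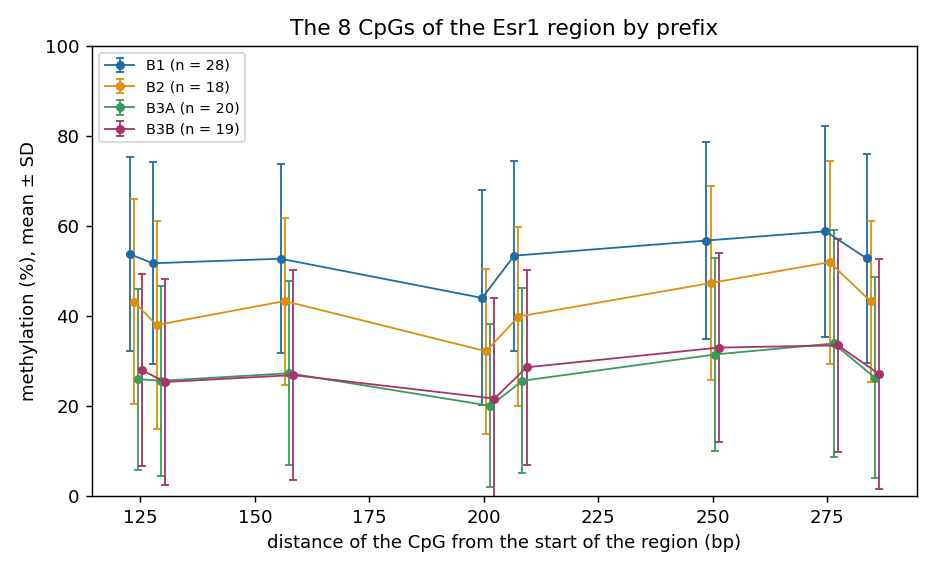
Mean methylation of each of the 8 CpGs of the Esr1 region (vertical axis, percent; bars are SD between lines) against distance from the start of the region in bp (horizontal axis), by prefix. The CpG at 201 bp is the lowest and that at 276 bp the highest in all 4 prefixes, and B1 lies above the other prefixes at every CpG; points of the prefixes are set apart sideways so that the bars can be read.

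All 8 CpGs kept the order of B1 first and B2 second by mean. At 201 bp B1 lines averaged 44.03% ± 23.9, B2 lines 32.2% ± 18.4, B3A lines 20.1% ± 18.1 and B3B lines 21.7% ± 22.4 (SD). At 276 bp B1 lines averaged 58.8% ± 23.4, B2 lines 51.98% ± 22.6, B3A lines 33.9% ± 25.2 and B3B lines 33.5% ± 23.7 (SD). Each of the 8 differed between prefixes (limma F test over 7917 CpGs, adjusted p from 0.000760 to 0.00285), where 45.2% of all CpGs tested were called. With the line mean as a covariate, limma called 0 of the 8 (adjusted p from 0.312 to 0.709), 0.177% of all CpGs were called, and 1 of the 8 had an unadjusted p under 0.05. These CpGs make up the region chosen for following the line mean, which itself differs between prefixes. Nothing is therefore read from the 8 of 8 called by prefix or from the 0 of 8 called with the covariate.

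The CpGs varied together across lines. Over their 28 pairs, Pearson r across 85 lines had a median of 0.920 and a range of 0.9002 to 0.959. In 80 other regions with at least 5 CpGs complete in all lines and a mean within 10 points of theirs, the median r between CpGs ran from 0.733 to 0.925, and 2 of these regions exceeded Esr1. After the line mean was taken out of each CpG by regression, the median r between the CpGs of Esr1 was 0.367, from 0.0241 to 0.703. The median over the 80 regions was 0.242 and 14 of them exceeded Esr1. Reads shared by neighbouring CpGs enter all these values, which are descriptions across CpGs of the same libraries. The region was chosen for following the line mean closely, which favours a high r between its CpGs before that mean is taken out. Within a line, the SD between the 8 CpGs averaged 7.29 points ± 3.45 (SD, n = 85). The deposited region average was higher than the mean of the 8 CpGs by 1.71 points ± 3.22 (SD), with r = 0.991 between them.

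The regions whose pattern over lines was most like that of Esr1 were intermediate in level. Of the 10 with the highest r, 9 are described here, and 7 of these 9 belonged to the same category as Esr1. Their Pearson r with Esr1 over lines lay between 0.969 and 0.978 and their means between 35.7% and 46.3%. The aging_Meer category holds 27.99% of the other kept regions. Over all the other kept regions of every category, 32.4% have an r over 0.9 with Esr1, so a high r is common. The closest was a region in Pik3ap1, an adaptor of phosphoinositide 3-kinase in B cells, with 40.3% ± 22.3 (r = 0.978). Next came Unc5a with 45.3% ± 22.1 (r = 0.977) and Cyp1a2, a cytochrome P450 gene whose enzyme oxidises drugs and estradiol, with 35.7% ± 22.1 (r = 0.974; SD, n = 85 each). The others were Sncaip, Tnp1, Fgf12, Synpo, Pik3r5 and Camkk1; Tnp1, a spermatid chromatin gene, was of the germline_Dahlet category and Synpo of the Cancer category. A line with a low Esr1 region was thus low at these regions too: the mean absolute difference from Esr1 was 3.80 points at Pik3ap1 and 6.41 points at Tnp1. With the line mean as a covariate, limma called 0 of the 9 between prefixes (adjusted p from 0.1665 to 0.825). As 3.43% of all regions were called, the count does not set them apart. The 9 were also picked for a high r with Esr1, which follows the line mean closely, so nothing is read from that count.

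The 3 least alike regions with a mean of at least 10% came from the categories B6J vs 129 (Lhx9 and Nkx2-1) and germline_Dahlet (Naa11). Lhx9, a transcription factor gene of the developing gonad, had r = 0.346 with Esr1 and 14.2% ± 16.9. Nkx2-1, which encodes a transcription factor of lung and forebrain, had r = 0.428 and 18.2% ± 15.6, and Naa11, an acetyltransferase gene, r = 0.517 and 12.9% ± 8.55 (SD, n = 85 each). Lhx9 had its highest mean in B3B, 21.97% ± 22.3, and its lowest in B3A, 9.40% ± 13.4, where the Esr1 region was lowest too (SD). It had 14.2% ± 17.7 in B1 and 11.6% ± 9.05 in B2 (SD). The prefixes did not differ at Lhx9 past the threshold (limma F test by prefix, adjusted p = 0.0834).

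**Figure D5:**
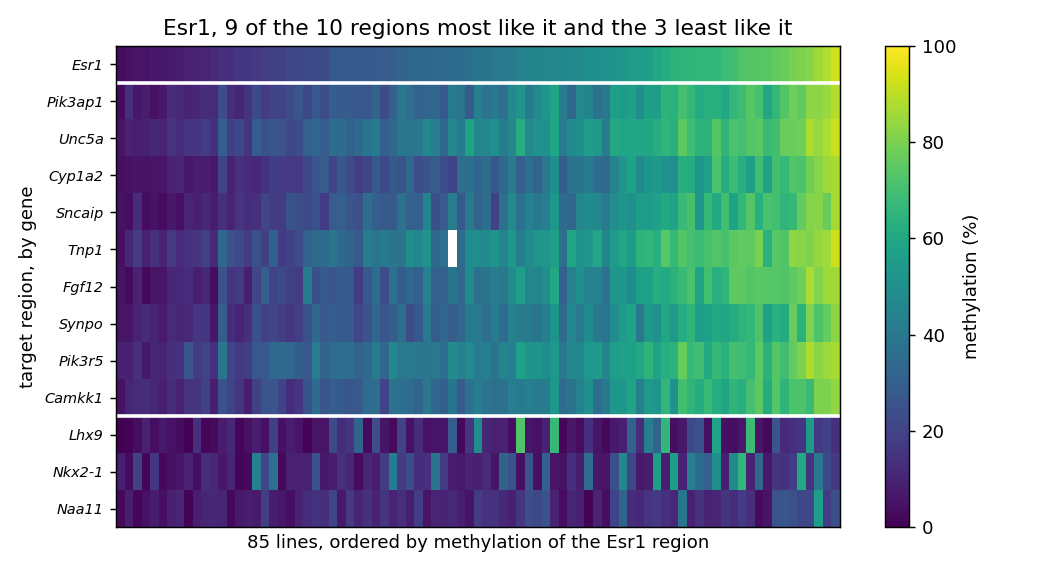
Methylation in percent (colour) of the Esr1 region (top row), 9 of the 10 regions most like it and the 3 least like it (bottom rows), each named by a gene it overlaps, in 85 lines ordered from the lowest to the highest Esr1 value (horizontal axis). The 9 regions follow the Esr1 order from 3.40% to 92.8%, and Lhx9, Nkx2-1 and Naa11 follow it less closely; the white cell has no value.

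Of 50 listed genes of nuclear receptors and estrogen signalling, 4 had a target region. Nr5a1, the gene of steroidogenic factor 1, which controls steroid hormone synthesis, was close to Esr1, with 43.2% ± 22.97 (SD, n = 84) and r = 0.964 between them. B1 lines averaged 57.5% there, B2 lines 45.8%, B3A lines 29.4% and B3B lines 33.6%, the same order of means as at Esr1. The line mean had this order too (24.4%, 20.7%, 12.8% and 15.8%), as did a region in Rara (35.7%, 29.7%, 19.6% and 24.3%). Regions in Esrrg, an orphan receptor gene related to Esr1, and Rara, a retinoic acid receptor gene, varied less. They had 34.4% ± 15.9 (SD, n = 77) and 28.1% ± 16.9 (SD, n = 84), and followed Esr1 less closely (r = 0.751 and 0.840). The median r with Esr1 over the kept regions was 0.841, close to that of Rara. All 4 were called between prefixes by limma (adjusted p = 0.000171 at Esr1, 0.000196 at Nr5a1, 0.0385 at Esrrg and 0.0141 at Rara), beside 81.6% of all regions. With the line mean as a covariate 0 of the 4 were called, and 1, Esr1, had an unadjusted p under 0.05, beside 3.43% called and 23.1% with an unadjusted p under 0.05 over all regions.

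Of 34 listed genes known for CpG island methylation in ageing or cancer, 4 had a target region, and all were far less methylated than Esr1. Gata4, an endoderm and heart transcription factor gene, had 13.9% ± 7.83 and r = 0.825 with Esr1, and Sox17, also of endoderm, 5.03% ± 2.69 and r = 0.707. Kcns1, a potassium channel subunit gene, had 2.35% ± 1.65 and r = 0.753, and Klf14, a zinc finger factor gene, 0.454% ± 0.503 and r = 0.188 (SD, n = 85 each). The median r with Esr1 over the kept regions was 0.841. The first 3 were called between prefixes by limma (adjusted p = 0.00746, 0.00421 and 0.000682) and Klf14 was not (adjusted p = 0.578), so 3 of 4 were called, near the 81.6% of all regions. The highest value of these 4 regions in any line was 33.9%, at Gata4, against 92.8% as the highest at Esr1.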

How the data were processed

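DNA methylation was measured by EM-seq after capture with a Twist panel, per the labels' protocols. The submitters' processing notes name Trim Galore 0.6.4, Bismark, Bowtie2 and mm10; no source used here gives further steps. The authors deposited methylation as a fraction from 0 to 1, as an average per target region and as a value per CpG, with a coverage filter of 10 by the table names. Depth is unknown, so sites cannot be weighted by it. In the region table, other cells mark regions without a value; lines lacked 25 to 173 of 868 regions (median 58), Esr1 none.

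Of 85 columns, 44 matched 1 of 101 sample titles and 41 only a prefix (16 matched 2 titles, 24 a title without the final N, 1 none); 0 columns went unused and 0 were identical. Tests covered the 787 regions present in 80% or more of the columns and all 7917 CpGs. Log2 odds, log2((fraction + 0.01)/(1 - fraction + 0.01)), were fitted with limma 3.58.1 in R 4.3.3 by prefix, with and without the line mean, and Benjamini-Hochberg adjusted; the scripts were tested on simulated data. Permutation tests used 100000 resamples (NumPy 2.4.6, SciPy 1.17.1, Python 3.11.15). The line mean is the mean over the kept regions without Esr1. Named regions are the 10 most like Esr1 by Pearson r over lines (1 is not reported here), the 3 least like it with a mean of at least 10%, the 3 on either side of it in r with the line mean, and those of the 2 gene lists. The region and the lists were chosen with earlier results of these data known. Alternatives changed the offset, scale, filter, line mean, region value and columns used.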

Additional observations from a re-analysis of the deposited data

How the results depend on the processing

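Over 67 alternatives for the Esr1 results, 64 were counted as unchanged and 3 as changed. For tests, unchanged meant the same direction, where one was called, and the same side of the threshold. Without lines that have 2 titles, B2 minus B3A was 11.2 points (permutation test, adjusted p = 0.128). As a difference of medians, B2 minus B3B was 18.8 points (permutation test, adjusted p = 0.0314). Against the median over the other kept regions, r of Esr1 was 0.940, and over the other alternatives it was 0.971 to 0.981. No threshold applies to r, and the move to 0.940 from 0.976 was counted as a change. The cause was not tested. B3A minus B3B, which passed under no alternative, ran from -13.2 to 0.614 points. The adjusted p of limma by prefix at the level of Esr1 ran from 0.000143 to 0.00641. With the line mean subtracted from the fractions, which compares the gap between Esr1 and that mean, it was 0.000110. With the line mean as a covariate it ran from 0.0548 to 0.772. Without columns with a final N, 7 of the 8 CpGs passed by prefix (limma, highest adjusted p = 0.0539). That alternative is counted among the 64 although 1 CpG changed its side of the threshold. The number of all CpGs called by prefix was 1801 without those columns and 2314 without lines that have 2 titles, against 3576. With the covariate, 3, 42 and 11 regions were called without final-N columns, without lines that have 2 titles and without the 6 B1 final-N columns, against 27; the CpGs called were 58 with an offset of 0.05, and 6 and 78 without final-N columns and without lines that have 2 titles, against 14. No paired analysis was possible because the numbers in the titles name lines and are not replicates shared between prefixes. Since the tables give no read counts, the precision of a single value, above all near 0%, is unknown.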
